A study of Ascaris suum with 28 samples.

Results

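The first cleavages of Ascaris suum, a large intestinal roundworm of pigs, were followed by setting the poly(A) RNA library of 64 h embryos (2-4 cells) against those of 24 h embryos (1 cell) and 46 h embryos (1-2 cells). A gene was counted as changed only where the 64 h library differed from both earlier libraries in the same direction. The threshold was 4-fold on RPKM + 1, with RPKM 10 or more in at least 1 of the 3 libraries. RPKM divides reads by gene length and by library size, so levels of different genes can be set side by side. By this rule 112 genes were changed among 7725 tested, out of 15399 gene identifiers. Of these, 39 genes (0.505% of those tested) were higher at 64 h and 73 genes (0.945%) were lower. The 3 libraries are part of a series of 28 samples from oocyte to larva. All came from a North American wild population, and the labels give no treatment. Eggs taken from the last of 4 uterus regions were incubated with shaking at 30 °C in acidic saline until the stated age. Each library pooled embryos from more than 1000 female worms, per the design text, so differences between mothers or between cells of an embryo are not seen. The embryos were compared further with 96 h embryos (10-26 cells), with zygotes of uterus regions 1 to 4, and with polysome gradient RNA of day 1 (1 cell) and day 3 (4-8 cells).

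An early animal embryo lives at first on RNA that the mother stored in the egg. This maternal RNA is removed in steps while transcription from the embryo's own genome begins, and an mRNA that loses its poly(A) tail also leaves a poly(A) selected library. Ascaris eggs cleave slowly, over days, after they have left the worm. A polysome gradient sorts mRNA by the number of ribosomes bound to it. Free mRNA stays near the top and heavily translated mRNA sediments furthest.

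Every stage had 1 library of a kind, so no difference given here has a replicate check or a p-value, and a count past a fold describes these libraries. The design text counts gradient and poly(A) data as biological replicates of each other, and says that sequencing strategies differed among libraries. Which library had which strategy is not known here. The column named for 64 h was taken as the poly(A) library because the table is of mRNAs. Total RNA and rRNA-depleted libraries of the same embryos carry the same age label, so this is an inference. The same holds for the columns of oocytes and of zygote region 4, on which the values for those stages rest. Of the 15399 identifiers, 809 were listed at 0 at 24 h, 955 at 46 h, 1999 at 64 h and 2168 at 96 h. Zygote region 3 had 2169. The median difference of all genes tested was -0.32 log2 units for 64 h minus 24 h and -0.36 for 64 h minus 46 h. Lower at 64 h were 4911 of the 7725 against 24 h and 5553 against 46 h. The RPKM total was not the lowest at 64 h, at 374861, 402947 and 380671 for 24 h, 46 h and 64 h. The identifiers come without gene names, and at most 2 of them in each direction are named per comparison.

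The balance of the 64 h changes depended on the scaling between libraries. As deposited, 39 genes were higher and 73 lower. After quantile normalization 70 were higher and 11 lower, and after median-ratio scaling 76 were higher and 7 lower. All 39 higher genes were called again under both scalings, whereas 8 and 7 of the 73 lower genes were. Statements on the lower genes therefore hold for RPKM as deposited, and the median of their 64 h minus 46 h differences was -2.13 log2 units, close to the threshold of -2. Against 24 h alone, 112 genes passed 4-fold upwards and 401 downwards. Against 46 h alone the counts were 50 and 75, and 73 of those 75 passed against 24 h too. Just inside the threshold, the weakest higher gene had RPKM 19.6 (24 h), 20.6 (46 h) and 85.8 (64 h). The strongest gene just outside had 17.4, 14.3 and 72.1. Among lower genes, the weakest inside had 42.4, 35.8 and 8.2 and the strongest outside 105.6, 74.1 and 17.8.

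**Figure D1:**
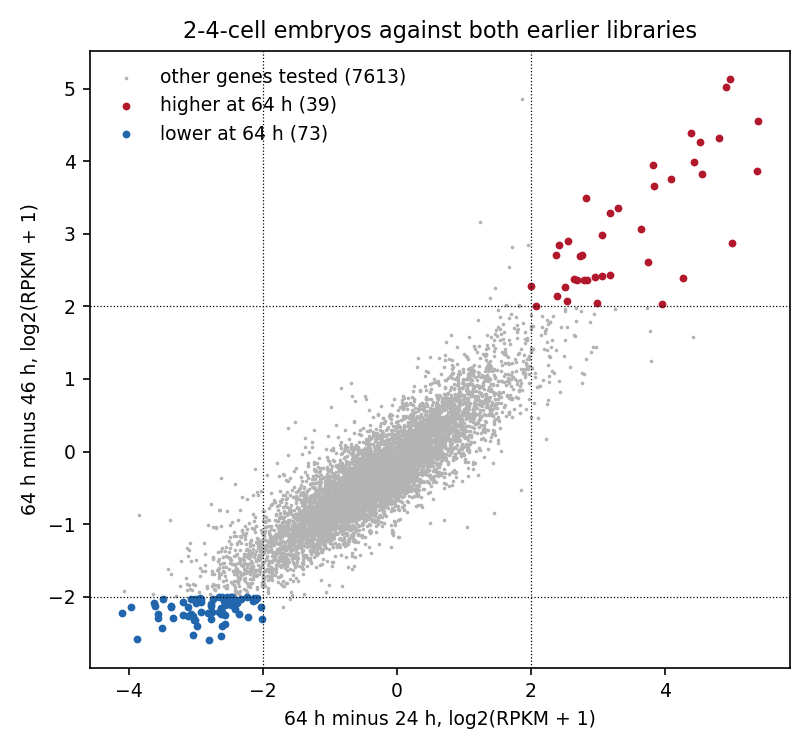
Each point is 1 of 7725 genes, by its log2(RPKM + 1) difference of 64 h from 24 h (x axis) and from 46 h (y axis), with dotted lines at a log2 difference of 2. The 39 higher genes reach 5.39 on the x axis, while the 73 lower genes gather close to the line and none lies below -2.59 on the y axis.

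Fewer genes passed the same rule at 64 h than in the neighbouring stages. Zygote region 4, the stage before 24 h, was at least 4-fold above both 24 h and 46 h in 113 genes (1.38% of 8205) and below both in 169 (2.06%). For the 96 h library the counts were 157 genes above (1.96% of 8028) and 976 below (12.2%). For 116 h embryos (32-64 cells) they were 235 above (2.89% of 8131) and 1342 below (16.5%). For day 7 embryos (256 cells) they were 499 above (5.96% of 8369) and 1343 below (16%). These counts all use the same 24 h and 46 h libraries.

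Most of the 39 higher genes were at low levels before cleavage, with exceptions. Their median RPKM was 0 in oocytes and 0.9, 1.3, 3 and 1.6 in zygotes of regions 1 to 4. In region 3, 11 of the 39 were at RPKM 10 or more, the highest at 137.8, against 5291 of all 7725 genes tested. In regions 1, 2 and 4 there were 4, 6 and 8 such genes, against 5292, 5302 and 6458. In embryos the median RPKM of the 39 was 2.1 at 24 h, 3.3 at 46 h and 33.7 at 64 h. At 64 h they ranged from 10.2 to 405.4, and at 24 h from 0 to 22. Of the 39, 5 were at least 2-fold higher at 46 h than at 24 h (1.9% of all genes tested), both being libraries that the rule used. In the oocyte library 30 of the 39 were under RPKM 1, against 5.57% of all genes tested. Under RPKM 5 in the oocyte and in all 4 uterus regions were 25 of the 39 (4.41% of all genes tested), and 12 were under RPKM 1 in all 5 libraries (0.673%). A rule that asks for a higher 64 h value favours genes that start low, so these shares are partly fixed by the choice of genes. The highest levels of 15 of the 39 were at 64 h itself, of 7 at 96 h, of 4 at 116 h and of 4 in zygote region 3. The others peaked on day 7, in L1 larvae or in L2 larvae, with 3 in each. Between 64 h and day 7, the highest value of 21 of the 39 was at 64 h (38.8% of all genes tested), as was that of 40 of the 73 lower genes. The 39 were chosen for a high 64 h value, so counts of peaks at 64 h are in part fixed by the choice too. In L1 larvae 21 of the 39 were at RPKM 10 or more (70.1%).

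At 96 h most higher genes were still up in RPKM as deposited at the 4-fold threshold. At a 2-fold threshold for 64 h, however, 36.8% of 277 were and 60.6% were back. After quantile normalization 55.7% of 70 were still up and 30% back. After median-ratio scaling 48.7% of 76 were still up, which is not most, and 35.5% were back. Each gene's start level was the mean of its 24 h and 46 h log2 values, and its 96 h distance from this level was compared with its 64 h distance. Of the 39, 11 went further up by at least 2-fold, 13 held within 2-fold of the 64 h distance, and 4 were part-way back. The other 11 were back, 8 of them within 2-fold of the start level and 3 at least 2-fold beyond it on the low side. Together, 28 of the 39 were at 96 h at least 2-fold above the start level, as were 7.92% of all genes tested. The 24 genes that held or went further had a median RPKM of 1.6 at 24 h, 3.25 at 46 h, 33.25 at 64 h, 58.75 at 96 h and 35.35 at 116 h. On day 7 their median was 34.35. Because genes were chosen for a high value in the 64 h library, a lower value at 96 h is in part built into the choice. They were also chosen for low values at 24 h and 46 h, so a 96 h value above the start level is in part built in too.

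ASU_12837 had the largest difference from the nearer of both references among the genes that lasted. It was at RPKM 0.9 at 24 h, 0.7 at 46 h, 58.7 at 64 h and 37.3 at 96 h, and at 3.6 at 116 h. The 64 h library stood 4.97 log2 units above 24 h and 5.13 above 46 h. From oocyte to zygote region 4 its RPKM was between 0 and 1.2, so its high values were those of 64 h and 96 h. ASU_12996 had the largest difference from the nearer of both references among the higher genes that went back. It was at RPKM 13.3 at 24 h, 18.6 at 46 h, 309.3 at 64 h and 21.5 at 96 h. In the uterus it was at 3.2, 5.1, 107.4 and 12.6 in regions 1 to 4, so its high libraries were region 3 and 64 h.

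The 73 lower genes were mostly present in the zygote. In zygote region 4, 66 of the 73 were at RPKM 10 or more, against 83.6% of all genes tested, and 48 of the 73 were so in the oocyte library, against 67%. These shares are close to those of all genes. Under RPKM 1 in the oocyte library were 10 of the 73, against 5.57% of all genes tested. Their median RPKM was 37 in region 4, 27 at 24 h, 17.8 at 46 h, 3.2 at 64 h, 1.7 at 96 h and 0.8 at 116 h. By the same values, 27 of the 73 were at least 2-fold lower at 24 h than in region 4 (10.4% of all genes tested), and 14 were at least 2-fold lower at 46 h than at 24 h (2.65%). The median log2 difference of 46 h minus 24 h was -0.55, against 0.03 for all genes tested. The rule used the 24 h and 46 h values, so these differences describe the chosen genes and support nothing further. Others were higher after the uterus: 14 of the 73 were at least 2-fold higher at 24 h than in region 4 (12.7% of all genes tested). Among these were genes near 0 before, since 3 of the 73 were under RPKM 1 in the oocyte and every uterus region (0.673% of all genes tested). Those genes were present at 24 h to 46 h and low again by 64 h.

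Most lower genes were still low at 96 h. Of the 73, 29 went at least 2-fold further down and 34 held. Another 3 were part-way back and 7 were back within 2-fold of the start level. In all, 66 of the 73 were at least 2-fold below the start level at 96 h, against 26% of all genes tested. The 73 were chosen for high values at 24 h and 46 h, which make up the start level, so this difference is in part built into the choice. At 64 h 2 of the 73 were listed at 0 and could not go lower. The 63 genes that held or went further had a median RPKM of 27.1 at 24 h, 18 at 46 h, 3.3 at 64 h, 1.4 at 96 h and 0.7 at 116 h.

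ASU_07380 had the largest difference from the nearer of both references among the lower genes that lasted. Its RPKM was 19.6 in region 4, 58.5 at 24 h, 50.3 at 46 h, 7.5 at 64 h and 7.5 again at 96 h. The log2 difference of 64 h was -2.81 from 24 h and -2.59 from 46 h. The oocyte library listed it at 0, and it was at 5 or less in uterus regions 1 to 3, so its peak was at 24 h to 46 h. ASU_14208 had the largest difference from the nearer of both references among the lower genes that went back. It was at RPKM 25.7 at 24 h, 15.5 at 46 h, 2.3 at 64 h and 14.6 at 96 h, and only the 64 h value lay below 5 from zygote region 1 to day 7.

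Some lower genes were higher again much later. In L1 larvae 25 of the 73 were at least 4-fold above their 116 h level, as were 6.9% of all genes tested. The median RPKM of the 73 was 27 at 24 h, 0.8 at 116 h and 6.1 in L1. On day 7, 7 of the 73 were at least 4-fold above 116 h (1.63%). Genes at a very low level at 116 h have more room for such a difference.

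**Figure D2:**
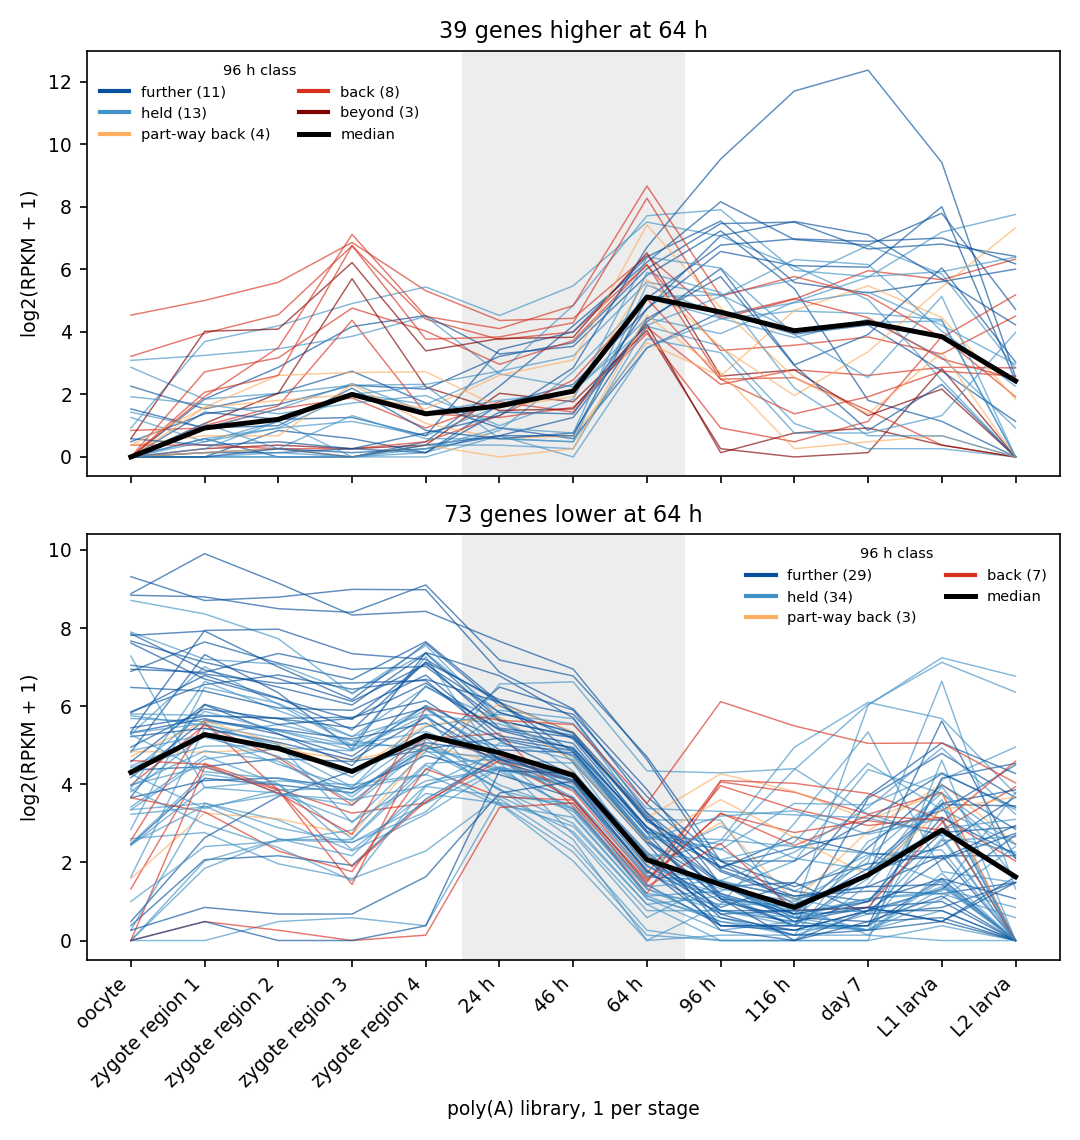
Lines show log2(RPKM + 1) of each changed gene over the 13 poly(A) libraries in developmental order, coloured by where the gene stood at 96 h, with the median in black. The shaded band marks 24 h, 46 h and 64 h. The median of the higher genes goes to RPKM 33.7 at 64 h and stays at 23.8 at 96 h, while the median of the lower genes goes to 3.2 and then 1.7.

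**Figure D3:**
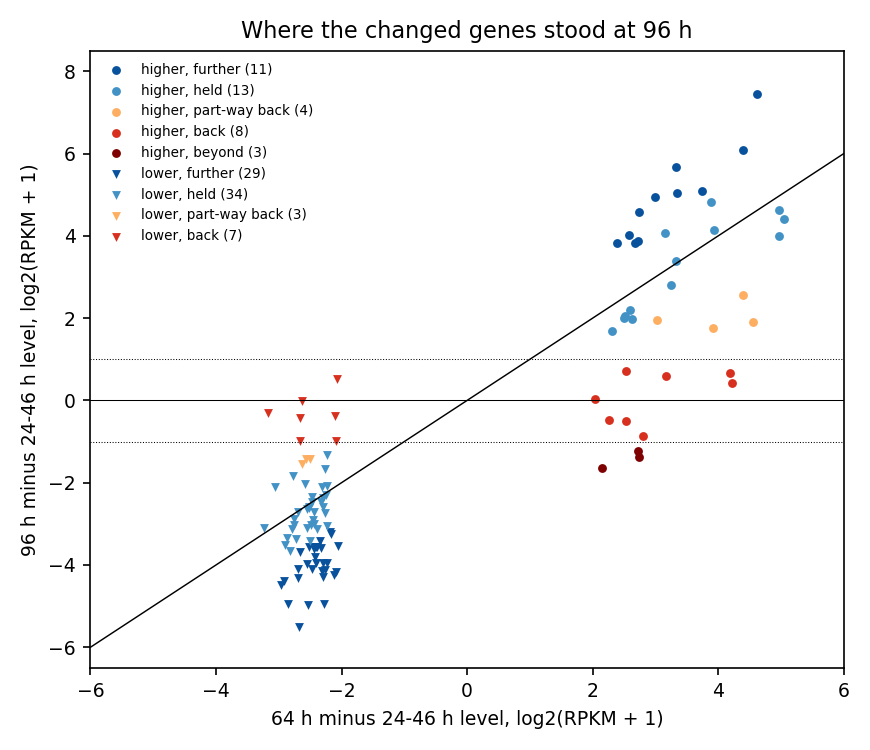
Each point is a changed gene, with its distance from the mean 24 h and 46 h level at 64 h (x axis) and at 96 h (y axis), both in log2(RPKM + 1). The diagonal marks no change from 64 h to 96 h, and dotted lines mark 2-fold around the start level. The 11 higher and 7 lower genes in red are back at, or past, the start level.

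The step from 64 h to 96 h was read for single genes among the 112. The largest decreases after a high 64 h value were those of ASU_10878 and ASU_04711. ASU_10878 was at RPKM 1.8, 1.9, 18 and 0.1 at 24 h, 46 h, 64 h and 96 h, a log2 difference of -4.11 for 96 h minus 64 h. ASU_04711 was at 12.8, 13.2, 91.1 and 5, a difference of -3.94. Both ended below their 24 h level. The largest increases after a low 64 h value were those of ASU_14673 and ASU_12036. ASU_14673 was at RPKM 38.5, 9.8, 1.3 and 15.7 over the same 4 ages, and ASU_12036 was at 23.4, 11.3, 1.8 and 16.1. At 96 h both lay between their 46 h and 24 h levels.

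Genes that went back at 96 h also differed in the uterus, in libraries that the rule did not use. Of the 11 higher genes that were back, 7 were at least 2-fold higher in zygote region 3 than in region 4, against 2 of the 24 that held or went further. Among all genes tested the share was 3.52%. The median log2 difference of region 3 minus region 4 was 2.34 for those 11 genes, -0.08 for the 24 and -0.51 for all genes tested. The 11 genes had a median RPKM of 2.8, 5.1, 51 and 9.5 in regions 1 to 4, then 6.8 at 24 h, 12.2 at 46 h, 69.6 at 64 h and 4.6 at 96 h. ASU_10878 was at RPKM 51 and ASU_04711 at 73.4 in region 3, against 3.7 and 9.5 in region 4. Lower genes that went back showed the opposite difference. Of those 7, 5 were at least 2-fold lower in region 3 than in region 4, as were 31 of the 63 that stayed down and 21.9% of all genes tested. Their median difference was -1.78, against -0.99 for the 63. ASU_14673 was at RPKM 1.7 in region 3 and 34.9 in region 4. Region 3 and 64 h share no label that sets them apart from neighbouring libraries, and the part of library preparation or sequencing in these shared values was not tested. If 64 h also had to differ 4-fold from region 3, 27 higher and 40 lower genes were left. Of these 27, 21 held or went further at 96 h and 3 were back. Of the 40, 39 stayed down and 0 were back. This setting removes genes whose region 3 value is like that at 64 h, so the loss of returning genes follows in part from the values above.

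**Figure D4:**
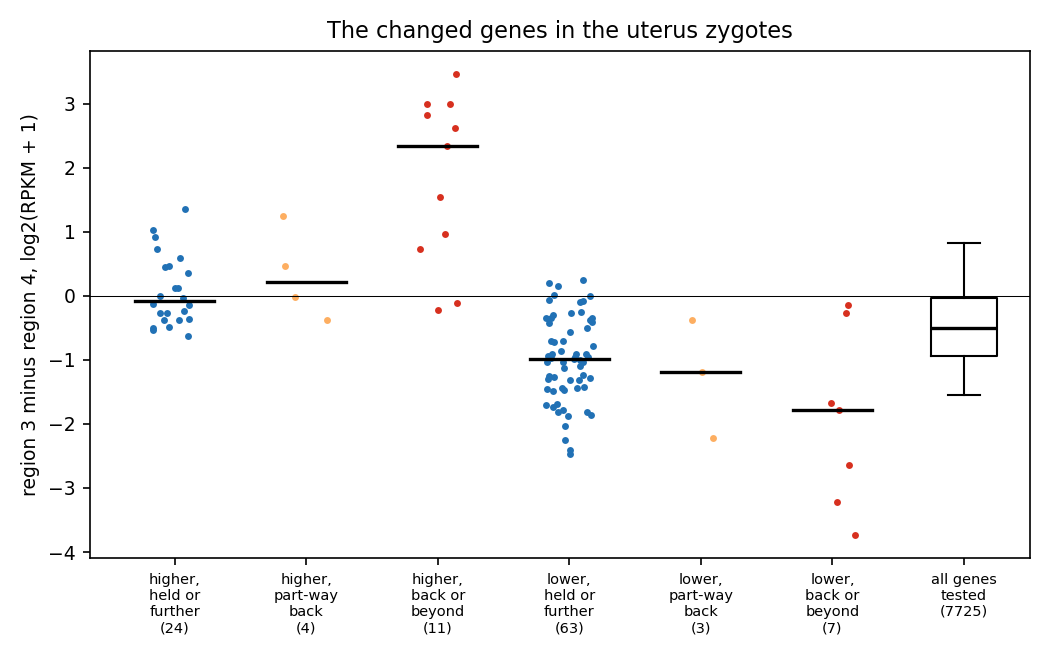
Points give log2(RPKM + 1) of zygote region 3 minus region 4 for the changed genes, grouped by direction at 64 h and position at 96 h, with bars at the median. The box at the right shows all 7725 genes tested, with whiskers from the 5th to the 95th percentile. The 11 higher genes that were back at 96 h have a median of 2.34, above those that held, at -0.08.

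Gradient RNA gave separate libraries over a similar interval. Day 3 embryos had 4-8 cells, between the 64 h and 96 h embryos, and day 1 embryos had 1 cell, as at 24 h. The mean RPKM of the free, middle and heavy fractions was used as the gradient value of a day. Of the 39 higher genes, 27 were at least 2-fold higher on day 3 than on day 1 (11.7% of all genes tested), and 23 at least 4-fold (2.25%). The median log2 difference was 2.43, against -0.05 for all genes tested. Of the 73 lower genes, 50 were at least 2-fold lower on day 3 (13%) and 6 at least 4-fold lower (1.18%), with a median of -1.39. These 2 gradients did not enter the choice of genes. Each day had 1 gradient, and its fractions are not replicates.

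Gradient values also differed between the genes that lasted and those that went back. Among the 24 higher genes that held or went further, 23 were at least 2-fold higher on day 3, with a median log2 difference of 3.95. All 24 had a positive difference, the smallest being 0.90, against 3686 of all 7725 genes tested. Among the 11 that were back, 1 was at least 2-fold higher and 2 were at least 2-fold lower, with a median of 0.01. All 4 part-way genes were higher on day 3, 3 of them by at least 2-fold. Among the 63 lower genes that stayed down, 49 were at least 2-fold lower on day 3, with a median of -1.47. A negative difference was seen in 62 of these 63 and in 4028 of all 7725 genes tested. Among the 7 that were back, 0 were at least 2-fold lower and 1 was at least 2-fold higher, with a median of -0.17. These differences between classes were not tested. Low gradient levels limit them for the higher genes that were back. In free, middle and heavy RNA of day 3, 6, 1 and 2 of those 11 were under RPKM 1, against 744, 13 and 199 of all 7725 genes tested. Low gradient levels on day 1 limit the differences for the 7 lower genes too, as they leave less room for a decrease. Their median RPKM in these fractions of day 1 was 3.9, 7.7 and 3.2, against 8.7, 26.2 and 11.6 for all genes tested. Day 1 gradient mean minus 24 h had a log2 median of -2.03 for these 7, -0.33 for the 63 and -0.49 for all genes. On day 5 (32-64 cells) the median difference from day 1 was 3.57 for the 24 higher genes that lasted, -0.09 for the 11 that were back and 0.67 for all genes tested.

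**Figure D5:**
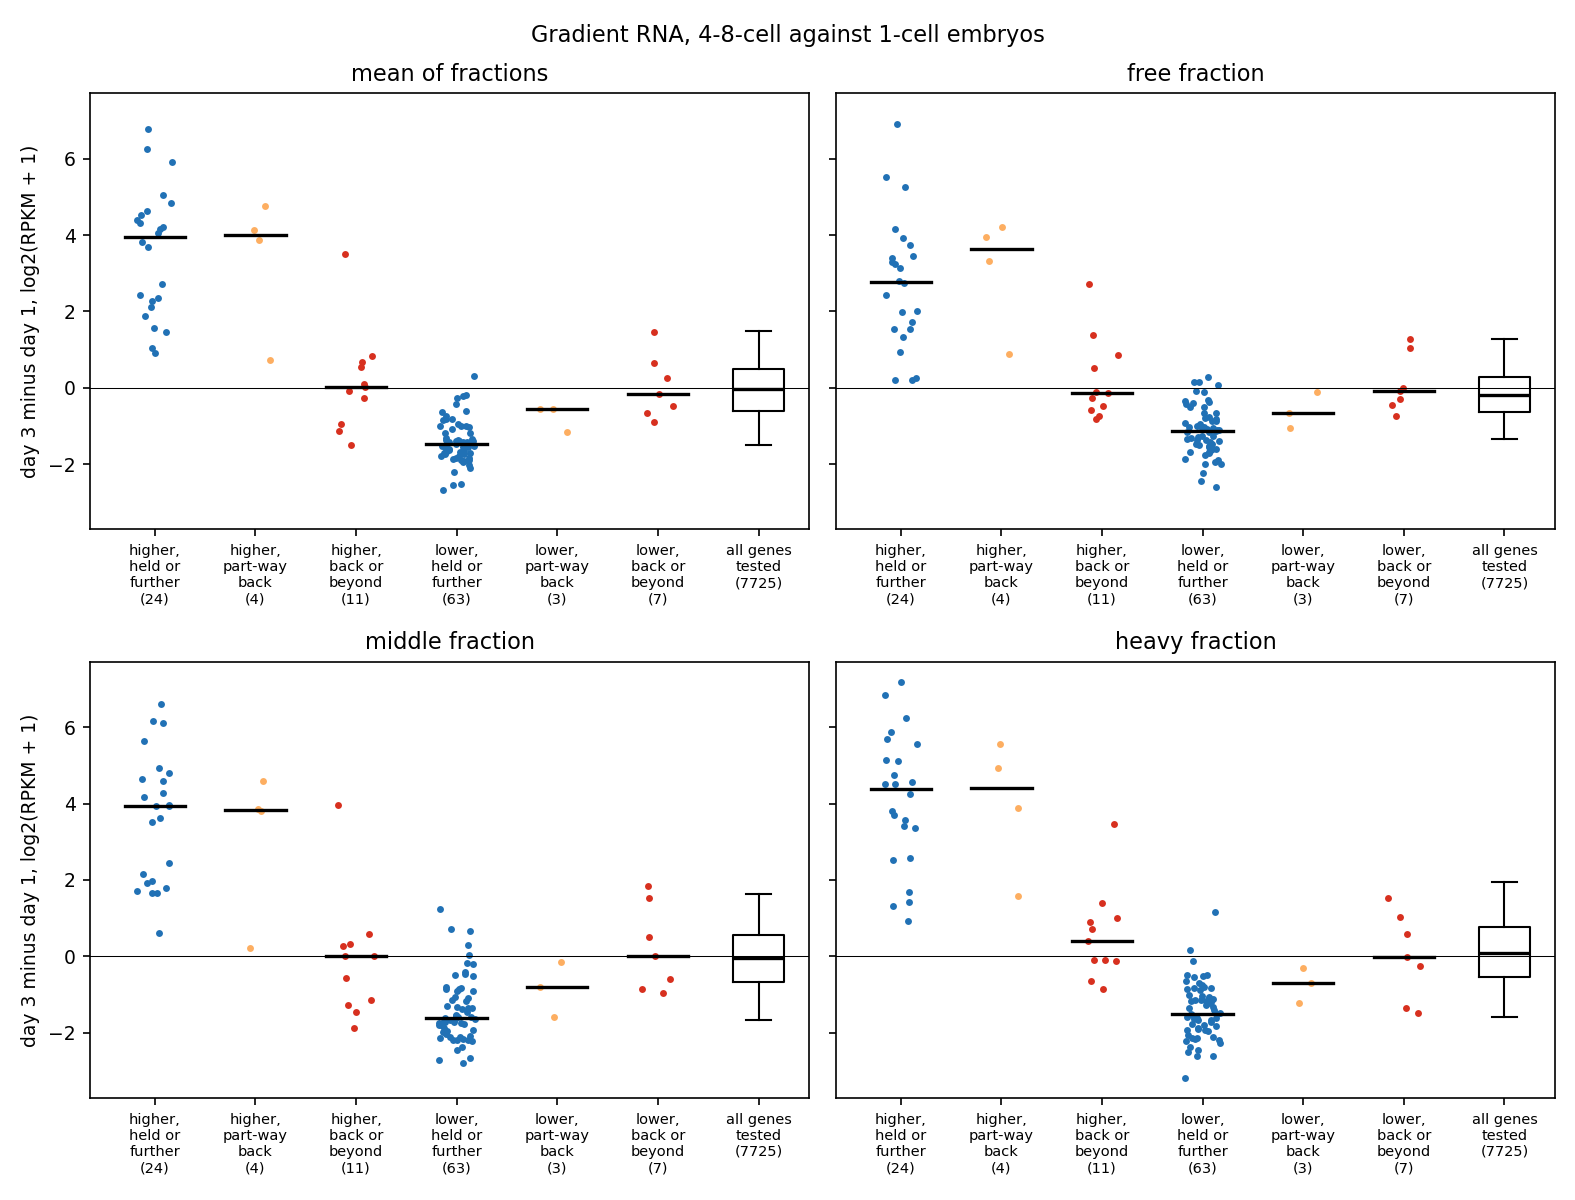
Points give log2(RPKM + 1) of day 3 minus day 1 gradient RNA for the changed genes, as the mean of fractions and in each fraction, grouped as in the plot of uterus regions, with bars at the median. Boxes show all 7725 genes tested, with whiskers from the 5th to the 95th percentile. In the mean of fractions, higher genes that held or went further have a median of 3.95 and those that were back 0.01.

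After ASU_12837, the largest gradient differences among higher genes were those of ASU_03503 and ASU_14494. ASU_03503 was at RPKM 1, 1.2 and 0.3 in the free, middle and heavy fractions of day 1. On day 3 it was at 76.3, 150 and 189.2. Its poly(A) values were 1.5, 6.2, 103.4 and 737 from 24 h to 96 h and 5300.3 on day 7, each higher than the one before. ASU_14494 was at 2.2, 1.1 and 0.5 on day 1 and at 146.2, 150.5 and 113.7 on day 3, and its poly(A) values were 83.1 at 64 h and 64.9 at 96 h. For ASU_12837 the mean of fractions was 220.6 on day 3, against 1 on day 1. In each of these 3 genes, the lowest day 3 fraction lay far above the highest day 1 fraction. By contrast ASU_12996, at RPKM 309.3 in the 64 h poly(A) library, had a gradient mean of 2.13 on day 3 and 2.8 on day 1. Its gradient level was 6.3 or less in every fraction of every day, while its poly(A) level was 13.3 at 24 h and 32.5 at 116 h. The gradients thus held little of this RNA at any stage, which limits what its flat gradient value says about 64 h. Among other higher genes that were back, ASU_10878 had gradient means of 0.13 on day 1 and 0.07 on day 3, and ASU_04711 had 21.07 and 31.43.

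The largest gradient decreases among lower genes were those of ASU_08405 and ASU_10088. ASU_08405 was at RPKM 7.6, 36.7 and 14 in the free, middle and heavy fractions of day 3, against 50.8, 249.6 and 91.7 on day 1. In poly(A) RNA it was at 504.7 in region 4, 116 at 24 h, 60 at 46 h, 13.6 at 64 h and 1.7 at 96 h. ASU_10088 was at 6.2, 14.6 and 8.1 on day 3, against 26.7, 107.6 and 50.9 on day 1. Its poly(A) values were 187.1 in region 4, 50.1 at 24 h, 19.2 at 46 h, 3.3 at 64 h and 1.8 at 96 h. In both genes all 3 fractions were lower on day 3, and the oocyte library held high levels, 636.7 and 417.3.

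The fractions themselves moved in parallel, with some difference between heavy and free. The median day 3 minus day 1 difference of the higher genes was 1.98 in the free, 2.43 in the middle and 3.47 in the heavy fraction. All genes tested had medians of -0.19, -0.04 and 0.09. Higher by at least 2-fold on day 3 were 25 of the 39 in the free (8.38% of all genes tested), 27 in the middle (13.9%) and 30 in the heavy fraction (18.1%). Heavy minus free had a median of 0.85 for the 39 on day 3, against -0.26 on day 1. The day 1 levels of the 39 were near 0, with a median RPKM of 0.6 in the heavy and 1.3 in the free fraction. Under RPKM 1 were 23 of the 39 in heavy and 15 in free RNA, against 77 and 441 of all 7725 genes tested. The day 1 value, and the day 3 minus day 1 differences between fractions, rest in part on such values. All genes tested had 0.70 on day 3 and 0.35 on day 1. For the 73 lower genes the day 3 minus day 1 medians were -1.05, -1.54 and -1.35 in free, middle and heavy RNA. Lower by at least 2-fold were 42 of the 73 in the free (11.9%), 47 in the middle (15.6%) and 51 in the heavy fraction (13.3%). Their heavy minus free median was -0.80 on day 3 and -0.58 on day 1. Not all members had this sign, since heavy exceeded free in 19 of the 73 on day 3 and 25 on day 1. Among all 7725 genes tested, heavy exceeded free in 5018 on day 3 and 4450 on day 1. Median RPKM of the 73 was highest in the middle fraction on both days, at 11.3 on day 3 and 23.9 on day 1. The median of all genes tested was also highest in the middle fraction on both days, so this is not particular to the 73. Gradient columns of these 2 days had RPKM totals between 252745 and 575735, and how the authors scaled fractions to each other is not given in the sources used here, so levels between fractions depend on it. RPKM is a share of a library, so more RNA of one gene and less RNA of the others cannot be told apart, nor can fewer cells of a type and less RNA per cell.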

How the data were processed

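The authors deposited RPKM to 1 decimal for 15399 identifiers in 28 columns, 13 of poly(A) libraries and 15 of gradient fractions. Columns were matched to samples by name. The 10 samples without a column were not analysed here. Per the labels' protocols, poly(A) RNA was fragmented, random primed and sequenced on Illumina machines. Bowtie 0.12.7 is named in the submitters' processing notes, and the build, annotation and counting tool were not stated. Depth is unknown, so no counting interval is given.

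Values were compared as log2(RPKM + 1), which understates changes of low genes. With 1 library per stage no test was run. The 64 h, oocyte and zygote region 4 columns were taken as poly(A) libraries by inference. Thresholds were 4-fold for a change at 64 h and 2-fold for classes at 96 h. Members and rules were chosen with earlier results of these data known. Identifiers were named by rule: the largest smaller-of-both change at 64 h among genes that lasted and among those that went back, then the largest 96 h reversals, then the largest gradient changes. Alternatives changed the fold, pseudocount, filter, scaling, references and gradient value. The calling step was tested on simulated data, with changes planted well past 4-fold in genes that were not at low RPKM. That test does not cover calls near the threshold or genes that start at low RPKM. Python 3.11.15, pandas 2.3.3 and numpy 2.4.6 were used.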

Additional observations from a re-analysis of the deposited data

How the results depend on the processing

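Of 101 recomputed values, 63 stayed within their limits, 1.5 times the main count for a count of genes or the 95% binomial interval of a share, and 38 did not. A 2-fold threshold gave 277 higher and 1055 lower genes. At 96 h 36.8% of the higher genes were then still up and 60.6% back, and 72.4% of the lower genes still down and 26.9% back. By the class rule a gene near 2-fold counts as back after a small move, and its part in these shares was not tested. In the gradient 46.6% and 44.5% moved the same way by 2-fold. An 8-fold threshold gave 15 higher genes, 13.3% back and 86.7% up in the gradient, and 0 lower genes, so lower genes had no shares. A pseudocount of 0.1 gave 142 lower genes. A pseudocount of 5 gave 18 higher and 6 lower genes, of which 100% stayed down, 0% were back and 83.3% were down in the gradient. Quantile normalization gave 70 higher and 11 lower genes, and for the lower ones 100%, 0% and 81.8%. Median-ratio scaling gave 76 and 7, with 100%, 0% and 85.7% for the lower ones. Of the higher genes, 48.7% were then still up at 96 h and 35.5% back. With 24 h alone there were 112 higher and 401 lower genes. With zygote region 4 added as a reference, 82.5% of lower genes were down in the gradient. With region 3 added as a reference, 77.8% of higher genes were still up, 11.1% back and 92.6% up in the gradient. The 40 lower genes had 97.5% still down, 0% back and 92.5% down in the gradient. Against region 3, the smaller change of ASU_07380 turned to 0.50 log2 units, from -2.59 against 24 h and 46 h, and that of ASU_10878 to -1.45, from 2.71. In the same setting 5 other named genes kept their direction without reaching 4-fold: ASU_12996 at 1.52, ASU_04711 at 0.31, ASU_14208 at -1.54, ASU_14673 at -0.23 and ASU_12036 at -0.40. Of the named lower genes, only ASU_07380 still reached 4-fold after quantile normalization (-2.27) and after median-ratio scaling (-2.23). The other named lower genes lay between -1.68 and -1.87, and between -1.70 and -1.97. With region 4 added, ASU_07380 was at -1.28 and ASU_14208 at -1.80. Why these values moved was not tested beyond what each setting itself fixes.

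No paired analysis was possible because each stage had 1 library and the labels give no replicate numbers. The depth of the libraries is not known here, so genes at low RPKM cannot be given a counting error.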
